A study of Mus musculus with 6 samples.

Results

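The unfolded protein response of the liver was described here by 35 genes, listed by name, that encode chaperones of the endoplasmic reticulum (ER), the sensors and transcription factors of the response, targets of its PERK-ATF4 arm, and factors of ER-associated degradation and of protein entry into the ER. They are 35 of the 18193 genes with a probe set on the array. Each gene was read from 1 probe set, the one annotated to that gene alone with the highest mean log2 signal over the 6 arrays. None of the 35 was missing, and 34 lay at or above the median brightness of all probe sets. Psat1 was the member below it.

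Liver RNA of male mice was hybridised to 6 Affymetrix arrays, 3 for the A/J strain and 3 for A/J-12SM. A/J-12SM is a consomic strain, in which chromosome 12 comes from SM/J and the other chromosomes come from A/J. Both strains were given the same high-fat diet for 7 weeks and were 13 weeks old. RNA of 3 mice was pooled on each array, so the spread between arrays is a spread between pools and not between mice. Because the whole chromosome was exchanged, which locus of chromosome 12 goes with a difference elsewhere in the genome cannot be told apart in this design. The comparison asks which liver mRNA levels differ when chromosome 12, on which a fatty liver locus is being mapped, comes from SM/J. Of the 35 genes, Pdia6 and Dnajb9 lie on this chromosome, in the segments that the R2 and the R3 congenic strain of the study carry from SM/J. The probes of chromosome 12 genes were not checked for sequence differences between SM/J and A/J, which can change a signal without a change of the mRNA level. Values are log2 signals after quantile normalization, and every difference is A/J-12SM minus A/J, with its standard error (SE) from the limma fit. The labelled tissue was borne out, as all 12 hepatocyte markers, Alb and Apoa1 among them, were above the median brightness. The summed signal of those markers was 161323 to 165131 in A/J and 166565 to 171093 in A/J-12SM.

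Hepatocytes secrete large amounts of plasma protein, which are folded in the ER with the help of BiP (encoded by Hspa5) and other chaperones. When unfolded protein accumulates, 3 sensors in the ER membrane respond. IRE1 (Ern1) splices the mRNA of the transcription factor XBP1, ATF6 is cleaved to release a transcription factor, and PERK (Eif2ak3) slows translation while favouring ATF4. XBP1 and ATF6 raise chaperones and ER degradation factors, and ATF4 raises genes of amino acid supply and of the stress response itself.

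The cis element through which ATF6 and XBP1 act on chaperone promoters, the ER stress response element (ERSE), consists of CCAAT and CCACG with 9 bases between them. The promoter of Hspa5 is shown first, because this gene is the standard target of the response. The stretch is the 250 bases before the RefSeq transcription start in GRCm38.p6, written 5′ to 3′ on the strand of the gene, and the capitals mark both parts of the element.
Hspa5 (chr2:34771840-34772089, plus strand): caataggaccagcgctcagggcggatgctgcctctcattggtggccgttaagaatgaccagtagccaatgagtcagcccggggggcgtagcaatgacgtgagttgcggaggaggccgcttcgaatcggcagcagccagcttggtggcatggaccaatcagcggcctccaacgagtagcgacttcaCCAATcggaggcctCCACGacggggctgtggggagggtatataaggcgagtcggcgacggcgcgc

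The element was searched in both orientations in 32851 RefSeq promoter windows, which reach from 250 bases before to 50 bases after each start. Only the exact letters were searched, so imperfect copies were neither counted nor marked. It was found in 39 windows, or 0.119% of them. A window was present for 31 of the 35 genes, and 9 of these held the element: Hspa5, Hsp90b1, Calr, Canx, Dnajc3, Creld2, Pdia6, Derl3 and Syvn1. Hyou1, Manf, Atf6 and Derl1 had no window. The elements of Creld2, Derl3, Syvn1 and Pdia6, which had an unadjusted p under 0.05 between the strains, are printed with 10 bases on either side and the element in capitals. Calr is added as a gene with nearly equal levels in the strains. All are given on the strand of the gene, so that Creld2, Derl3 and Calr show the element in its reverse orientation.
Creld2 (chr15:88819510-88819548, plus strand): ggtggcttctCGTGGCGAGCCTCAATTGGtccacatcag
Derl3 (chr10:75893232-75893270, plus strand): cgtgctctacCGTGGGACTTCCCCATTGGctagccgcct
Syvn1 (chr19:6046522-6046560, plus strand): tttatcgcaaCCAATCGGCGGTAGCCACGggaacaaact
Pdia6 (chr12:17266481-17266519, plus strand): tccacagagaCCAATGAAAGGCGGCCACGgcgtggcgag
Calr (chr8:84847065-84847103, minus strand): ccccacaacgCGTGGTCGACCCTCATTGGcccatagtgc

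The second element, ERSE-II, joins the same parts, the first of them reversed, as ATTGG, 1 free base and CCACG. It was present in 0.0365% of windows, among them those of Herpud1 and, after the start, Dnajb11. The C/EBP-ATF response element (CARE) bound by ATF4, searched as TGATGNAA, was present in 3.97% of windows, and in those of Asns, Atf3, Chac1, Herpud1 and Trib3. The cyclic AMP response element TGACGTCA occurred in 1.79% of windows, including that of Ppp1r15a. The XBP1 site TGACGTGG occurred in 0.676% of windows and in 0 of the members, which says only that these letters are not in those windows. The elements of Herpud1, which had nearly equal levels in the strains, and of Chac1, which was higher in A/J-12SM, are printed in the same way.
Herpud1 (chr8:94386367-94386397, plus strand): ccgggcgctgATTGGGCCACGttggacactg
Chac1 (chr2:119351039-119351066, plus strand): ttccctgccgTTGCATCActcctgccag
A match is a description of the sequence and was not tested as a binding site.

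No member passed the test between the strains. At an adjusted p under 0.05 in limma, with Benjamini-Hochberg adjustment over 45037 probe sets, 0 of 35 genes were called, against a background of 0.0555% of all probe sets. The smallest adjusted p among the members was 0.383, for Derl3. At an unadjusted p under 0.05, 8 members were higher in A/J-12SM (Hspa5, Hyou1, Creld2, Ern1, Xbp1, Chac1, Syvn1 and Derl3) and 1 was lower (Pdia6). For genes at or above the median brightness, the background at this threshold was 7.98%, made up of 3.98% higher and 4% lower. Student's t-test, which the paper names for comparing A/J with A/J-12SM mice, was also run on the same array values. It gave an unadjusted p under 0.05 for 8 of those 9 genes, all but Hspa5. After Benjamini-Hochberg adjustment 0 of the 35 genes were under 0.05 in that test. For 10 members the strains were fully apart, 8 of them higher and 2 lower in A/J-12SM, and the background of such genes was 14%. For these 10 genes the exact two-sided permutation test gave p = 0.1, the smallest value that 3 arrays against 3 can give. For Hspa5 the exact permutation test gave p = 0.2.

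The members did not share 1 direction. Of the 35 genes, 21 had a higher mean in A/J-12SM and 14 a lower mean, with a median difference of 0.050. Of all genes at or above the median brightness, 49.4% had a higher mean in A/J-12SM. This split depends on the array levels. The deposited signals had a median difference of -0.22 over all probe sets, and on them 12 members had a higher and 23 a lower mean, with a median of -0.13. Of the 11042 genes at or above the median brightness, 1386 had a higher and 9656 a lower mean on these signals. On them 2 members were higher and 5 lower at an unadjusted p under 0.05, with 0 called. The share of all genes at this threshold was not counted for the deposited signals. Pdia6, Creld2 and Derl3 kept an unadjusted p under 0.05 in all 15 alternative settings, and Chac1 and Syvn1 in 14 of them. Fewer cells of a type and less RNA per cell cannot be told apart in these whole-liver samples.

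**Figure D1:**
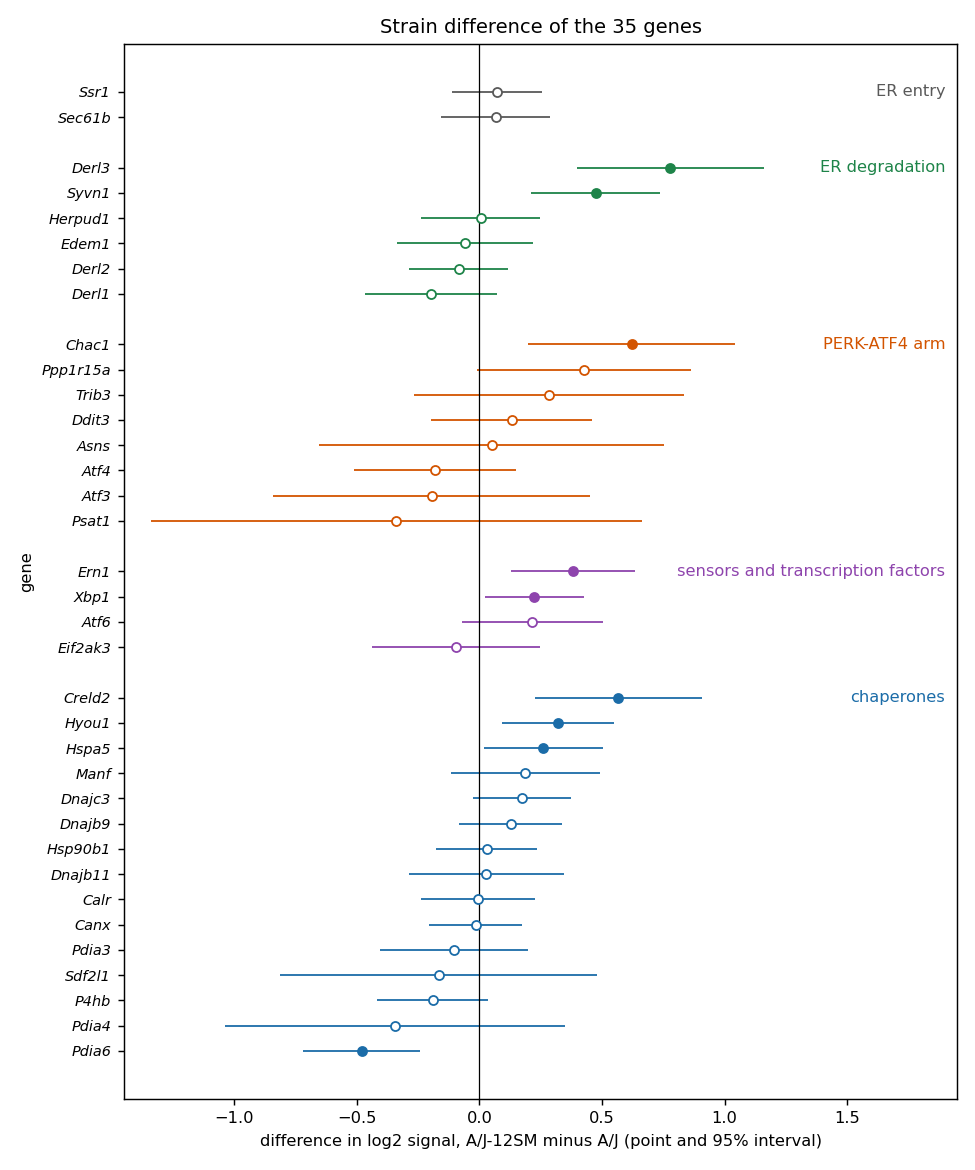
Difference in log2 signal, A/J-12SM minus A/J, of the 35 genes by role (x axis), with points at the limma estimate and lines for its 95% interval; filled points have an unadjusted p under 0.05 and open points do not. Derl3, Chac1 and Creld2 stand farthest to the right at 0.78, 0.62 and 0.57, and Pdia6 farthest to the left at -0.48.

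The plot of differences by gene shows that every role group other than ER entry held genes on both sides of 0. The genes with an unadjusted p under 0.05 were spread over chaperones, sensors, the PERK-ATF4 arm and ER degradation.

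Among the 15 chaperone genes, Creld2, Hyou1 and Hspa5 were higher in A/J-12SM than in A/J and Pdia6 was lower, each at an unadjusted p under 0.05, while 8 of the 15 had a higher and 7 a lower mean. Their median difference was 0.029, against -0.13 on the deposited signals. Hspa5 encodes BiP, the Hsp70 chaperone of the ER lumen that also holds the sensors inactive. Its log2 signals were 12.82, 12.75 and 12.96 for A/J against 13.28, 12.92 and 13.12 for A/J-12SM. The second A/J-12SM array lay below the highest A/J array, so the strains overlapped. The difference was 0.26 (SE 0.11, 95% interval 0.018 to 0.50), a 1.20-fold higher mean, with an unadjusted p of 0.0379 and an adjusted p of 0.792 in limma. The difference was 0.16 on the deposited signals (unadjusted p = 0.201 in limma), 0.17 without the first A/J-12SM array and 0.14 as a mean of its probe sets, and the unadjusted p was under 0.05 in 7 of the 15 alternative settings.

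Hyou1 encodes a large ER chaperone that exchanges the nucleotide bound by BiP. Its signals were 9.42, 9.34 and 9.54 for A/J against 9.91, 9.69 and 9.67 for A/J-12SM. All A/J-12SM arrays lay above all A/J arrays, with a difference of 0.32 (SE 0.10, 1.25-fold, unadjusted p = 0.0105, adjusted p = 0.653 in limma). It was 0.11 on the deposited signals (unadjusted p = 0.35 in limma), and the unadjusted p was under 0.05 in 11 of the 15 settings. Other probe sets of Hyou1 gave 0.35 (SE 0.24) and 0.10 (SE 0.26), both with overlap, and its probe sets averaged 0.26. Creld2, an ER protein with epidermal growth factor-like domains that is raised by ER stress, had the largest mean difference among the chaperone genes. Its signals were 9.21, 9.17 and 9.39 for A/J against 10.18, 9.54 and 9.75 for A/J-12SM, again without overlap. The difference was 0.57 (SE 0.15, 95% interval 0.23 to 0.91), which is 1.48-fold, with an unadjusted p of 0.00422 and an adjusted p of 0.542 in limma, and it was 0.34 on the deposited signals. The A/J-12SM arrays of Creld2 were spread more widely than the A/J arrays (SD 0.33 against 0.12, 3 arrays each). Manf, a small secreted ER stress protein that binds BiP, had signals of 11.69, 11.61 and 11.90 for A/J against 12.21, 11.85 and 11.70 for A/J-12SM, and its strains overlapped (difference 0.19, SE 0.14, and 0.042 without the first A/J-12SM array).

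The J-domain co-chaperones of BiP all had small differences. Dnajc3 had signals of 11.09, 11.03 and 11.21 for A/J against 11.39, 11.20 and 11.27 for A/J-12SM, with a difference of 0.17 (SE 0.089, unadjusted p = 0.0801 in limma). Its other probe sets gave -0.037, 0.25, 0.049 and -0.29, and its probe sets averaged 0.030. On the deposited signals the difference of Dnajc3 was 0.00065. Dnajb9, which lies in the R3 segment of chromosome 12, had 10.85, 10.80 and 10.68 for A/J against 10.82, 10.85 and 11.05 for A/J-12SM. The difference of Dnajb9 was 0.13 (SE 0.093), and its arrays overlapped. Dnajb11 had 9.16, 9.11 and 9.42 for A/J against 9.55, 9.16 and 9.06 for A/J-12SM (difference 0.029, SE 0.14). The partner of Dnajb11 in the ER, Sdf2l1, had 7.99, 8.20 and 8.17 for A/J against 8.53, 8.18 and 7.15 for A/J-12SM. The third A/J-12SM array of Sdf2l1 stood far below the other 5 arrays, and the difference of -0.17 (SE 0.29) became 0.23 without it.

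Hsp90b1, the Hsp90 chaperone of the ER, and the lectin chaperones calreticulin (Calr) and calnexin (Canx), which hold newly made glycoproteins, had nearly equal means. The signals of Hsp90b1 were 12.40, 12.34 and 12.44 for A/J against 12.54, 12.27 and 12.46 for A/J-12SM (difference 0.030, 95% interval -0.18 to 0.24). Those of Calr were 12.67, 12.64 and 12.77 for A/J against 12.82, 12.76 and 12.48 for A/J-12SM (difference -0.0053, 95% interval -0.24 to 0.23). Those of Canx were 12.28, 12.18 and 12.25 for A/J against 12.21, 12.33 and 12.13 for A/J-12SM (difference -0.014, 95% interval -0.20 to 0.18). Other bright probe sets of Canx gave -0.43 (SE 0.22, with overlap) and -0.18 (SE 0.11, without overlap), and its probe sets averaged -0.21. In the probe set read for each of these genes the strains overlapped, and the intervals leave differences of up to 0.24 in either direction. Promoters of Hsp90b1, Calr and Canx hold the element printed above for Creld2 and Derl3.

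Protein disulfide isomerases form and rearrange disulfide bonds, and those among the 35 genes were lower in A/J-12SM or overlapped. Pdia5, from the list of other oxidoreductases, was higher without overlap. It had 10.09, 10.06 and 10.04 for A/J against 10.19, 10.28 and 10.17 for A/J-12SM (difference 0.15, SE 0.081, unadjusted p = 0.0880 in limma). Pdia2, from the same list, was below the median brightness and overlapped. Pdia6 lies at chr12:17266589-17284785 in GRCm38.p6, inside the R2 segment near the centromere, where A/J-12SM carries SM/J sequence. Its signals were 11.45, 11.72 and 11.73 for A/J against 11.28, 11.16 and 11.01 for A/J-12SM. Every A/J-12SM array was below every A/J array. The difference was -0.48 (SE 0.11, 95% interval -0.72 to -0.24), so that the mean was 1.39-fold higher in A/J, with an unadjusted p of 0.00121 and an adjusted p of 0.392 in limma. A second, dimmer probe set of Pdia6 gave -0.47 (SE 0.22), also without overlap, with an unadjusted p of 0.0574 in limma. On the deposited signals the adjusted p of Pdia6 was 0.0546 in limma, the lowest of any member in any setting. Those signals had a median difference of -0.22 over all probe sets. The part of probe sequence in the difference of Pdia6 was not tested.

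P4hb, the most studied isomerase and a subunit of collagen prolyl hydroxylase, had signals of 13.12, 13.16 and 13.09 for A/J against 13.07, 13.003 and 12.73 for A/J-12SM. Its strains did not overlap either, although the lowest A/J array and the highest A/J-12SM array were close (difference -0.19, SE 0.10, unadjusted p = 0.0916 in limma). The difference of P4hb was -0.092 without the third A/J-12SM array and -0.042 with median centring. Pdia3, which works with calreticulin and calnexin on glycoproteins, had 12.04, 12.13 and 12.37 for A/J against 12.35, 12.04 and 11.85 for A/J-12SM (difference -0.10, SE 0.14). Pdia4 had 9.22, 9.29 and 9.32 for A/J against 9.50, 9.28 and 8.02 for A/J-12SM. As for Sdf2l1, the third A/J-12SM array was far below the rest, and the difference of -0.34 (SE 0.31) became 0.11 without that array.

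**Figure D2:**
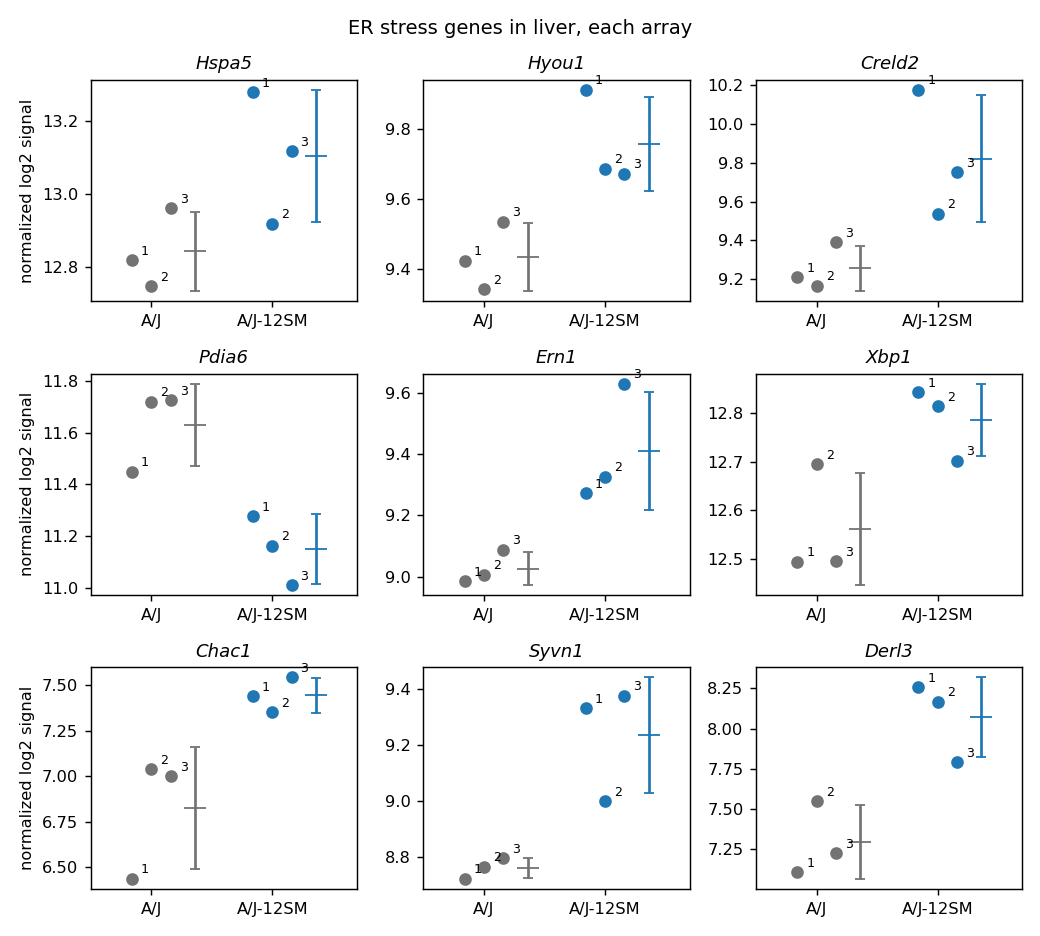
Normalized log2 signal of each array (y axis, scaled apart for each gene) for the 9 genes with an unadjusted p under 0.05, with points numbered by replicate and bars for the mean and SD of the 3 arrays of a strain. The strains overlap for Hspa5 and are apart for the other 8 genes, of which Pdia6 is the one with higher values in A/J.

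The plot of the 9 genes by array shows that the first A/J-12SM array was the highest of its strain for Hspa5, Hyou1, Creld2, Pdia6, Xbp1 and Derl3. Over the 15 chaperone genes this array was the highest of its strain in 13 genes (86.7%), whereas it was the highest in 29.1% of all genes at or above the median brightness. The third A/J-12SM array was the lowest of its strain in 10 chaperone genes (66.7%, against 37.9% of those genes). In A/J the third array was the highest in 11 (73.3%, against 34.5%) and the second the lowest in 9 (60%, against 31.6%). Within a strain, the highest and the lowest values of most chaperone genes thus came from the same pools. Their median SD was 0.10 in A/J and 0.18 in A/J-12SM, and that of all genes at or above the median brightness was 0.14 and 0.19.

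The third A/J-12SM array also had the lowest 5′ to 3′ signal ratio of the actin control probe sets, 0.423, against 0.553 to 0.590 on the other 5 arrays. Its ratio for the Gapdh control probe sets, 1.53, lay within the 1.45 to 1.55 of the other arrays. The part of RNA quality in the low values of Pdia4 and Sdf2l1 was not tested. Without this array 9 members were higher and 1 was lower at an unadjusted p under 0.05 in limma, with 0 called. Calr, Canx, Pdia3, Pdia4 and Sdf2l1 then had a higher mean in A/J-12SM.

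**Figure D3:**
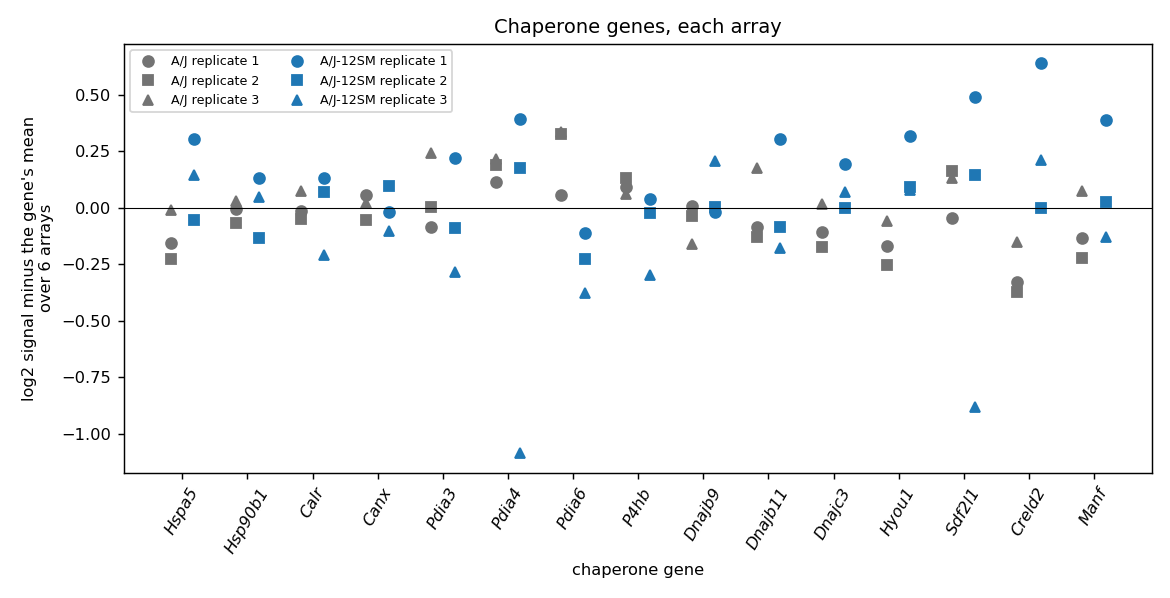
Log2 signal of each array minus the gene's mean over the 6 arrays (y axis) for the 15 chaperone genes (x axis), with gray for A/J, blue for A/J-12SM and a symbol for each replicate. The third A/J-12SM array stands apart below the others for Pdia4 and Sdf2l1, and the first A/J-12SM array is the highest of its strain for 13 of the 15 genes.

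The plot of chaperones by array shows how far the pools of 1 strain differed. The SD of the A/J-12SM arrays was 0.33 for Creld2, 0.27 for Manf and 0.25 for Pdia3, beside strain differences of 0.57, 0.19 and -0.10 for the same genes. The median SD of the chaperones in A/J-12SM was 0.18, close to the 0.19 of all genes at or above the median brightness.

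Of the 4 genes of the sensors and their transcription factors, Ern1 and Xbp1 were higher in A/J-12SM without overlap, Atf6 was higher with overlap and Eif2ak3 was slightly lower. Their median difference was 0.22, and 0.038 on the deposited signals. Ern1 encodes IRE1, the kinase and endoribonuclease that splices Xbp1 mRNA. Its signals were 8.98, 9.01 and 9.09 for A/J against 9.27, 9.33 and 9.63 for A/J-12SM, with a difference of 0.38 (SE 0.11, 1.30-fold, unadjusted p = 0.00730, adjusted p = 0.619 in limma). The other probe sets of Ern1 did not show this. Of these, 2 were at or above the median brightness, with differences of 0.12 (SE 0.15) and -0.68 (SE 0.46), and averaging the probe sets of the gene gave -0.011. On the deposited signals the difference of Ern1 was 0.17 (unadjusted p = 0.212 in limma).

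Xbp1 had signals of 12.49, 12.695 and 12.50 for A/J against 12.84, 12.81 and 12.702 for A/J-12SM. The lowest A/J-12SM array was just above the highest A/J array, and the difference was 0.22 (SE 0.090, 1.17-fold, unadjusted p = 0.0335, adjusted p = 0.782 in limma). Its other probe sets gave -0.042, -0.0072 and 0.14. On the deposited signals the difference was 0.097 (unadjusted p = 0.362 in limma), and the unadjusted p was under 0.05 in 8 of the 15 settings. Splicing of Xbp1 mRNA was not measured here.

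Atf6, the sensor that becomes a transcription factor after cleavage, had 8.05, 8.20 and 8.42 for A/J against 8.50, 8.51 and 8.31 for A/J-12SM (difference 0.22, SE 0.13, unadjusted p = 0.125 in limma), which was -0.021 on the deposited signals. Eif2ak3, which encodes PERK, had 7.97, 7.85 and 7.67 for A/J against 7.68, 7.995 and 7.53 for A/J-12SM (difference -0.093, SE 0.15). Both genes overlapped between the strains.

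In the PERK-ATF4 arm, Chac1 and Ppp1r15a were higher in A/J-12SM without overlap, and the other 6 genes overlapped. Of the 8 genes, 5 had a higher and 3 a lower mean in A/J-12SM, with a median difference of 0.091 that was -0.020 without the third A/J array and -0.14 on the deposited signals. Chac1 encodes an enzyme that degrades glutathione and is a target of ATF4. Its signals were 6.44, 7.04 and 6.999 for A/J against 7.44, 7.35 and 7.54 for A/J-12SM. The first A/J array was well below the other arrays of its strain, and the difference was 0.62 (SE 0.19, 95% interval 0.20 to 1.04, 1.54-fold, unadjusted p = 0.00846, adjusted p = 0.622 in limma). It was 0.38 on the deposited signals (unadjusted p = 0.0553 in limma).

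Ppp1r15a encodes GADD34, which directs the phosphatase that reverses the action of PERK on translation. It had signals of 6.30, 6.79 and 6.79 for A/J against 7.26, 6.93 and 6.97 for A/J-12SM, with the first A/J array again the lowest. The difference was 0.43 (SE 0.20, 1.34-fold, unadjusted p = 0.0550 in limma), which was 0.18 on the deposited signals and 0.26 without that array.

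Of the transcription factors of this arm, Atf4 and Atf3 had a lower mean in A/J-12SM and Ddit3 a higher one. Atf4 itself had 10.37, 10.32 and 10.14 for A/J against 10.40, 10.11 and 9.77 for A/J-12SM (difference -0.18, SE 0.15, and -0.018 without the third A/J-12SM array). Ddit3, which encodes the factor CHOP linked to cell death under prolonged stress, had 7.06, 7.17 and 7.07 for A/J against 7.25, 7.09 and 7.36 for A/J-12SM (difference 0.13, SE 0.15). Atf3 was just above the median brightness, with 5.40, 5.53 and 5.55 for A/J against 5.29, 5.06 and 5.55 for A/J-12SM (difference -0.20, SE 0.29). In each of these the strains overlapped. ATF4 is controlled in large part through translation of its mRNA, which an array does not measure.

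Trib3, a pseudokinase induced by ATF4 and CHOP, had 8.73, 8.13 and 8.10 for A/J against 8.15, 8.53 and 9.13 for A/J-12SM. Both strains were widely spread for Trib3, so that a difference of 0.28 came with an SE of 0.25, and the difference was 0.020 without the third A/J-12SM array and 0.51 without the first. The amino acid genes were dim. Asns, the asparagine synthetase, had 5.69, 5.45 and 4.95 for A/J against 5.56, 5.46 and 5.22 for A/J-12SM (difference 0.050, 95% interval -0.65 to 0.75). Psat1, an enzyme of serine synthesis and the dimmest member, had a difference of -0.34 with a 95% interval of -1.34 to 0.66. Both intervals reach far to either side of 0.

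Among the 6 genes of ER degradation, Derl3 and Syvn1 were higher in A/J-12SM without overlap, while Herpud1, Edem1, Derl1 and Derl2 overlapped. The group had 3 higher and 3 lower means and a median difference of -0.026, which was 0.035 without the third A/J array and -0.19 on the deposited signals. Derl3 encodes derlin-3, a membrane protein that helps to pass misfolded proteins out of the ER. Its signals were 7.11, 7.55 and 7.22 for A/J against 8.26, 8.17 and 7.79 for A/J-12SM. The 3 arrays of A/J-12SM lay clearly above those of A/J, with a difference of 0.78 (SE 0.17, 95% interval 0.40 to 1.16), which was the largest of the 35. The mean was 1.72-fold higher in A/J-12SM, with an unadjusted p of 0.00112 and an adjusted p of 0.383 in limma.

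Syvn1 encodes HRD1, the ubiquitin ligase at the centre of this pathway. It had signals of 8.72, 8.76 and 8.79 for A/J, which were close together (SD 0.037 over 3 arrays), against 9.33, 8.998 and 9.38 for A/J-12SM. The difference was 0.48 (SE 0.12, 1.39-fold, unadjusted p = 0.00252, adjusted p = 0.466 in limma), and on the deposited signals it was 0.26 (unadjusted p = 0.0510 in limma). Another probe set of Syvn1 gave 0.29 (SE 0.16) with overlap. Sel1l, the partner that holds HRD1 in its complex, lies on chromosome 12, which comes from SM/J in A/J-12SM. It is not among the 35 genes and was listed with the other ER degradation factors. It had 9.93, 9.89 and 9.93 for A/J against 10.23, 9.96 and 10.28 for A/J-12SM, without overlap (difference 0.24, SE 0.10, unadjusted p = 0.0409, adjusted p = 0.798 in limma).

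The other degradation genes overlapped between the strains. Herpud1, which brings HRD1 complexes together, had 12.13, 12.07 and 12.41 for A/J against 12.09, 12.30 and 12.24 for A/J-12SM (difference 0.0051, 95% interval -0.24 to 0.25). Edem1, which helps to select misfolded glycoproteins, had 10.51, 10.50 and 10.15 for A/J against 10.32, 10.50 and 10.17 for A/J-12SM (difference -0.058, SE 0.12). The relatives of Derl3 had lower means in A/J-12SM. Derl1 had 10.21, 10.21 and 10.15 for A/J against 10.12, 10.15 and 9.71 for A/J-12SM (difference -0.20, SE 0.12, and -0.056 without the third A/J-12SM array), and Derl2 had 11.62, 11.62 and 11.75 for A/J against 11.70, 11.56 and 11.47 for A/J-12SM (difference -0.084, SE 0.090).

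The genes of ER entry were nearly equal. Sec61b, a subunit of the protein-conducting channel, had 11.04, 11.35 and 11.25 for A/J against 11.30, 11.36 and 11.18 for A/J-12SM (difference 0.066, SE 0.099). Ssr1, a subunit of the complex that accompanies the channel, had 10.62, 10.60 and 10.72 for A/J against 10.79, 10.69 and 10.67 for A/J-12SM (difference 0.072, SE 0.082). Their median difference was 0.069, and -0.12 on the deposited signals.

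Read by promoter element, the 9 members with an ERSE did not share a direction. Hspa5, Creld2, Derl3, Syvn1, Dnajc3 and Hsp90b1 had a higher mean in A/J-12SM, and Calr, Canx and Pdia6 a lower one, with a median difference of 0.17 that was 0.00065 on the deposited signals. The 11 other measured genes with an ERSE had 6 higher and 5 lower means and a median of 0.083, against -0.15 on the deposited signals. Of those, Ero1b, which supplies disulfide bonds to the isomerases, was the one with an unadjusted p under 0.05 (difference 0.21, SE 0.091, adjusted p = 0.798 in limma). Of the 5 members with a CARE, Chac1 had an unadjusted p under 0.05, and Asns, Atf3, Herpud1 and Trib3 did not.

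Other probe sets were available for 24 of the members and 11 had a single one. Of the 43 other probe sets, 34 reached the median brightness, and 22 of these had the sign of the gene's own probe set, while 12 had the other. When a gene's probe sets were averaged instead of taking the brightest, 5 members were higher in A/J-12SM at an unadjusted p under 0.05, among them Creld2, Chac1, Syvn1 and Derl3, and Pdia6 was lower. By their names, the probe sets used for Canx, Hyou1, Xbp1, Syvn1 and Trib3 are of the Affymetrix types that can match transcripts of other genes. Those of Hspa5, Hsp90b1, Calr, P4hb, Psat1 and Derl3 are of the type that matches several transcripts of 1 gene.

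The rest of the pathway was read from further lists, and 0 of their genes were called by limma, while 4 had an unadjusted p under 0.05. The background at this threshold was 7.98% of genes at or above the median brightness. Of 16 other oxidoreductases, 9 had a higher and 7 a lower mean in A/J-12SM, with a median of 0.023. Ero1b was higher, with 10.02, 9.84 and 10.09 for A/J against 10.22, 10.18 and 10.19 for A/J-12SM, and Tmx4, a membrane-bound thioredoxin-like protein, was lower (-0.25, SE 0.11), both at an unadjusted p under 0.05. Of 17 genes of glycosylation and the calnexin cycle, 10 were higher and 7 lower, with a median of 0.015 and none at that threshold. The translocon and signal peptidase list had 15 higher and 4 lower means among the 19 measured, with a median of 0.051 that was -0.14 on the deposited signals. Ssr2, a partner of Ssr1, was its single gene with an unadjusted p under 0.05 (0.24, SE 0.093).

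Of 21 other ER degradation genes, 7 were higher and 14 lower, with a median of -0.051, and Sel1l alone had an unadjusted p under 0.05. Of 23 other ATF4 targets, 12 were higher and 11 lower (median 0.028), and of 20 other stress transducers 9 were higher and 11 lower (median -0.035). None of these 43 genes had an unadjusted p under 0.05. On the deposited signals the medians of these further lists, the translocon and signal peptidase list aside, lay between -0.26 and -0.15, against -0.22 over all genes at or above the median brightness.

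**Figure D4:**
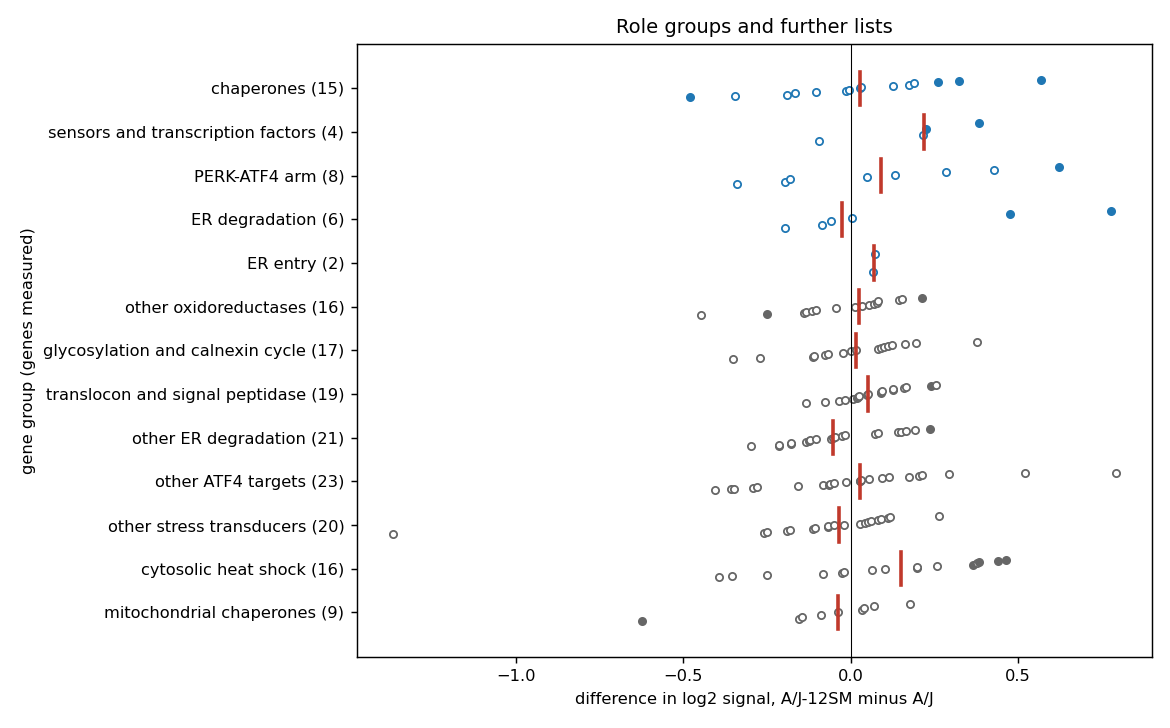
Difference in log2 signal, A/J-12SM minus A/J (x axis), of each measured gene in the 5 role groups (blue) and in further lists (gray), with filled points for an unadjusted p under 0.05 and a red bar at the median of the list. The medians lie between -0.051 and 0.22, and within each list genes stand on both sides of 0 except for the pair of ER entry genes.

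In the plot of gene lists, Derl3 and Syvn1 had larger differences than each of the 21 other ER degradation genes, of which Sel1l was the highest at 0.24. Creld2 had the largest difference of the chaperones and other oxidoreductases, and Chac1 the largest of its arm.

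Markers of other cell types were read beside these values, because plasma cells and pancreatic acinar cells are rich in ER genes such as Derl3, Creld2 and Xbp1. Of 10 measured B and plasma cell markers 5 were at or above the median brightness, 6 had a higher and 4 a lower mean in A/J-12SM, and their median difference was 0.13 (-0.070 on the deposited signals). Jchain had 6.94, 8.80 and 7.46 for A/J against 6.59, 6.56 and 7.06 for A/J-12SM, and Ighm had 8.41, 9.13 and 8.38 for A/J against 8.15, 7.98 and 7.86 for A/J-12SM. Both were lower in A/J-12SM at an unadjusted p under 0.05 (differences -0.998 and -0.64). The summed signal of the list was 3941 to 4219 in A/J and 3441 to 4281 in A/J-12SM. Most of this sum came from 1 gene, Sdc1, at means of 11.61 in A/J and 11.63 in A/J-12SM. The sum therefore says little of the other markers. Of the markers at or above the median brightness, Jchain, Mzb1 and Ighm had a lower mean in A/J-12SM, and Ms4a1 and Sdc1 a higher one. Ighm and Sdc1 lie on chromosome 12. Of 5 pancreatic markers Prss2, Cpa1, Ctrb1 and Cel were below the median brightness in both strains, and Cela1 was above it at means of 11.63 and 11.67.

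Kupffer cell and macrophage markers were lower in A/J-12SM for 13 of 14 genes (median -0.27, and -0.49 on the deposited signals), with Cd5l, Aif1 and C1qa at an unadjusted p under 0.05. The background lower at this threshold was 4% of genes at or above the median brightness, and the arrays of C1qa overlapped. Their summed signal was 8192 to 10284 in A/J and 7273 to 8965 in A/J-12SM. Stellate cell markers had 9 higher and 1 lower mean (median 0.043, -0.17 on the deposited signals, summed signal 4330 to 4960 against 4865 to 5641), and endothelial markers 4 higher and 4 lower (median 0.024, -0.20 on the deposited signals, summed signal 4947 to 5064 against 5334 to 5579). At the same threshold the stellate markers Reln and Lum were higher in A/J-12SM (0.46 and 0.64). So were endothelial Fcgr2b (0.37) and the hepatocyte markers Pck1 and Cps1 (0.81 and 0.28). No cell marker was called at an adjusted p under 0.05. Of 5 bile duct markers, Epcam alone was at or above the median brightness, and Krt7, below it, was lower at an unadjusted p under 0.05 (-2.22). The part of cell composition in the differences of the members was not tested.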

How the data were processed

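Liver RNA of A/J and A/J-12SM mice was measured on 6 arrays, 3 per strain, each with RNA of 3 mice pooled. The labels give strain and replicate and call the arrays biological replicates. Whether pools shared mice is not given in the sources used here, so p-values measure the spread between these arrays.

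The authors deposited intensity values on a linear scale, 1 per probe set and array. The submitters' processing notes name MAS 5, which corrects background and summarises the probes of a set. Its scaling target is not given in the sources used here, and the trimmed means of the arrays differed between strains (201 to 213 in A/J, 171 to 186 in A/J-12SM). The 64 control probe sets were left out and the log2 intensities were quantile-normalized, which removes any overall difference between strains. The strains were compared in R 4.3.3 with limma 3.58.1, by lmFit followed by eBayes with trend on mean signal and no covariate, with Benjamini-Hochberg adjustment over 45037 probe sets. An exact two-sided permutation test was added for each member. The limma step was tested on simulated data. Gene names came from the platform annotation, updated through RefSeq (34741 of the 34945 probe sets with 1 gene matched), which also gave positions and promoter windows in GRCm38.p6. The number of arrays limits the precision. The median SD between replicates was 0.21 on the log2 scale at or above the median brightness (5.33) and 0.86 below it.

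The members and lists were chosen with earlier results of these data known. All members were to be named, those at or above the median brightness with the values of each array, and up to 3 genes with an unadjusted p under 0.05 of each further pathway list. Of the listed genes outside the 35, 12 were not measured here. Alternatives covered the normalization, an offset of 9.20 added to the intensities, a filter on the dimmest probe sets (under the 40th percentile), 1 prior variance, Student's t-test, a replicate block, the mean over probe sets and leaving out each array.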

Additional observations from a re-analysis of the deposited data

How the results depend on the processing

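No member was called in any of the 15 alternatives. The adjusted p of every member stayed at or above 0.0546, which was reached by Pdia6 on the deposited signals, and the next lowest was 0.204, for Derl3 without the third A/J-12SM array. The count of members higher in A/J-12SM at an unadjusted p under 0.05, 8 as reported, was 2 on the deposited signals, 4 with 1 prior variance and 5 with the mean over probe sets. The count of lower members, 1 as reported, was 5 on the deposited signals, which had a median difference of -0.22 over all probe sets. When single arrays were left out, these counts ranged from 6 to 9 and from 1 to 3, the 3 being Pdia6, P4hb and Atf4 without the first A/J-12SM array. On the deposited signals the medians were -0.13 for chaperones, 0.038 for sensors and transcription factors, -0.14 for the PERK-ATF4 arm, -0.19 for ER degradation and -0.12 for ER entry. The median for ER degradation was 0.049 with median centring and 0.024 with the mean over probe sets, which gave 0.11 for the sensors and transcription factors. Without single arrays the medians ranged from -0.029 to 0.11 for chaperones, 0.16 to 0.27 for sensors and transcription factors, -0.020 to 0.16 for the PERK-ATF4 arm, -0.054 to 0.035 for ER degradation and 0.021 to 0.11 for ER entry. The lowest PERK-ATF4 value and the highest ER degradation value came without the third A/J array. None of the 9 genes with an unadjusted p under 0.05 changed sign in these alternatives, except Ern1 with the mean over probe sets (-0.011). The causes of these shifts were not tested. Same-numbered arrays of the strains did not all deviate together (correlations -0.057, 0.089 and 0.16), and not every array correlated best with its own number, so the numbers were not taken as pairs. With a replicate block 0 members were called, 8 were higher and 1 lower at an unadjusted p under 0.05, and 28 probe sets were called over all, against 25 without it. Psat1 was left out by the filter on dim probe sets.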

Other observations

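The cytosolic heat shock proteins, chaperones outside the ER that respond to a separate transcription factor (HSF1), were read as a comparison list. Of 16 measured genes, 10 had a higher and 6 a lower mean in A/J-12SM, with a median difference of 0.15 that was -0.042 on the deposited signals. At an unadjusted p under 0.05 in limma 4 were higher, against a background of 3.98% of genes at or above the median brightness. Stip1, which links Hsp70 to Hsp90, had 8.91, 8.78 and 8.77 for A/J against 9.11, 9.29 and 9.20 for A/J-12SM (difference 0.38, adjusted p = 0.485 in limma). Hsp90aa1, the inducible cytosolic Hsp90, lies on chromosome 12, which comes from SM/J in A/J-12SM. It had 11.82, 11.79 and 11.91 for A/J against 12.12, 12.14 and 12.58 for A/J-12SM (difference 0.44, adjusted p = 0.586 in limma). Hsph1 and Hspb1 had differences of 0.36 and 0.46. None of the 4 genes, which were picked by their unadjusted p, overlapped between the strains, and none passed the adjusted test. Over the whole list 5 of 16 genes had no overlap, against a background of 14%.

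Of 9 mitochondrial chaperones and proteases, 4 had a higher and 5 a lower mean in A/J-12SM (median -0.038, and -0.21 on the deposited signals). Clpx, the unfoldase of a matrix protease, had 12.46, 11.98 and 12.23 for A/J against 11.91, 11.75 and 11.14 for A/J-12SM, without overlap (difference -0.62, SE 0.19, adjusted p = 0.622 in limma).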
